A study of Mus musculus with 8 samples.

Results

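The immediate early genes are a set of 10 genes, Egr1, Fos, Jun, Ccn1, Junb, Fosb, Atf3, Ier2, Ier3 and Dusp1, whose transcripts were measured in whole kidneys of mice carrying a mutation of Umod, the gene of uromodulin, the abundant urinary protein made in the thick ascending limb. All array elements whose annotated symbol is one of these genes were taken, older symbols included (Cyr61 for Ccn1), which gave 15 of 20749 elements and 10 of 9030 named genes. The set was put together with the Umod A227T results of these arrays known, so its values in that line are a description. Which of its elements passed the thresholds of the fit over all elements is stated for that line, with no p-value and as no evidence. The tested animals were 4 homozygous Umod A227T males, with an age of 19 in the labels, and 4 heterozygous Umod C93F males, with an age of 39. The labels give no unit, and the study itself states ages in weeks that are slightly lower than these. Every mutant RNA was hybridised together with pooled wild-type RNA from its line (males of the same age) to 2 spotted two-colour cDNA arrays, the second with the dyes swapped, so that the series holds 16 arrays. A pool holds RNA of 6 control animals per the labels, and the study's methods give a smaller number. Both lines carry a point mutation of Umod in all cells, on the C3HeB/FeJ background. Mutation, zygosity, age, pool and hybridisation series all change between the lines, and their parts cannot be told apart.

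Immediate early genes are transcribed within minutes of a stimulus such as a growth factor, stretch, hypoxia or injury, without the synthesis of a new protein, because the factors that switch them on, among them SRF with its ternary complex partners and CREB, are already in the nucleus and are activated by kinase cascades. Most encode transcription factors, and FOS and JUN proteins pair as the AP-1 complex that carries the signal to later genes. Their transcripts are short-lived, and in kidney they are known to rise quickly in ischemia.

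The promoters of Fos, Jun and Ccn1, of which each had an element over 1.4-fold lower in Umod A227T kidneys, are shown as the 250 bases before the start of transcription, since these genes are described together. The window holds the proximal promoter, and the known serum response element of Fos lies farther upstream, outside it. RefSeq sequences of the GRCm38.p6 mouse assembly were used for 8 of the 10 genes. Egr1 was left out by rule, so nothing is said of its promoter, and no sequence was used for Ier2. The windows lie at chr12:85473640-85473889 on the plus strand for Fos, at chr4:95052223-95052472 on the minus strand for Jun and at chr3:145649986-145650235 on the minus strand for Ccn1, and capitals mark the motifs found.
Fos: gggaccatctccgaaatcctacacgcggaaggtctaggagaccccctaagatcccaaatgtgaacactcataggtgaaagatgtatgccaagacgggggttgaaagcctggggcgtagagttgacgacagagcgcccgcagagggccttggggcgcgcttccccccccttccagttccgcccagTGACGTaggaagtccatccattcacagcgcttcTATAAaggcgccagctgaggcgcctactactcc
Jun: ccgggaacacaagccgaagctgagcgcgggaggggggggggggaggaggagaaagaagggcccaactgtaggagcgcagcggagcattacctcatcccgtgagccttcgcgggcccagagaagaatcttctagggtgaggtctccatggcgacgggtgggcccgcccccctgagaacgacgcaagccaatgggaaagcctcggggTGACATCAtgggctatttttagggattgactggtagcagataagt
Ccn1: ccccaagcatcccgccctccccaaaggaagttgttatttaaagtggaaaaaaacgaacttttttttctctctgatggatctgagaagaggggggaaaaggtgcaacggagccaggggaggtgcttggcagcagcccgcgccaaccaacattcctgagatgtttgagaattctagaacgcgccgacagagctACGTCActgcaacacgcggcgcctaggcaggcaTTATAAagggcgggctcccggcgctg

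The motifs searched on both strands were the CArG box bound by SRF, the AP-1 site TGANTCA, the full cyclic AMP response element TGACGTCA, its core TGACGT, the variant TGACATCA, the EGR site GCGNGGGCG and the TATA box TATAA. The core TGACGT lies inside the full element, so a match of TGACGTCA counts under both, and it was added after the sequences had been seen. Fos held the core at positions -66 to -61 and a TATA box at -33 to -29, counted from the start of transcription. Ccn1 held the core on the opposite strand at -59 to -54, and TATAA at -25 to -21, overlapped by a match on the opposite strand. Jun held TGACATCA at -45 to -38 and no TATAA. The core was present in 4 of the 8 promoters (Fos, Ccn1, Dusp1 and Atf3), against 6.56% of 27025 mouse promoters of this length, and TATAA in 3 of 8 (Fos, Ccn1 and Ier3), against 23.5%. The full element was found in Dusp1 alone of the 8 (1.62% of all promoters), TGACATCA in Jun alone (3.02%) and the EGR site in Fosb alone (4.65%). The CArG box (1.4% of all promoters) and TGANTCA (6.87%) were in none of the 8 windows, which leave out Egr1 and Ier2. These are matches of letters in a short window and not measured sites.

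Values are log2 ratios of the mutant mouse over the wild-type pool, averaged over both arrays of a mouse, and a negative value means a lower transcript level in the mutant. The direction was taken from the study's processed ratios and from its figure legends, which give mutant over wild type. Each array was signed by its correlation with these ratios, so its agreement with them afterwards is fixed. Before signing, the correlation was positive on all arrays with 1 pattern of scan name and negative on all arrays with the other. It is likely rather than settled, since a literal reading of the scan names would turn every sign, and higher and lower in all that follows rest on it. To be tested, an element had to reach 2 times its local background in either channel on both arrays of 3 mice or more. It was called at a Benjamini-Hochberg adjusted p under 0.1 with a fold over 1.4. Of the immediate early gene elements, 8 of 15 (6 of 10 genes) were tested in Umod A227T and 1 of 15 (Ier2) in Umod C93F. The arrays of the lines differed in brightness. A median of 64.8% of spots per array reached this brightness in the Umod A227T series (range 56.6 to 73.7%), against 28.1% in the Umod C93F series (15.3 to 42.3%). Transcripts of kidney were bright in the pool channel of both series: the median foreground over background was 71.3 and 11.1 for Umod and 52.1 and 9.49 for the proximal tubule transporter Slc22a6, in the Umod A227T and the Umod C93F series.

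In Umod A227T kidneys, 4 of the 6 tested genes had an element called lower: Ccn1, Egr1, Jun and Fos. The called share over all 9211 elements tested was 1.8% (1.01% lower, 0.793% higher). All 8 tested elements had a mean below 0, and 7 of the 8 were below 0 in 4 of 4 mice (12.6% of all tested elements). Since the genes were chosen on this contrast, nothing is read from these counts or their shared sign. With median centring in place of loess, 29.5% of all called elements were lower, against 56% with loess.

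**Figure D1:**
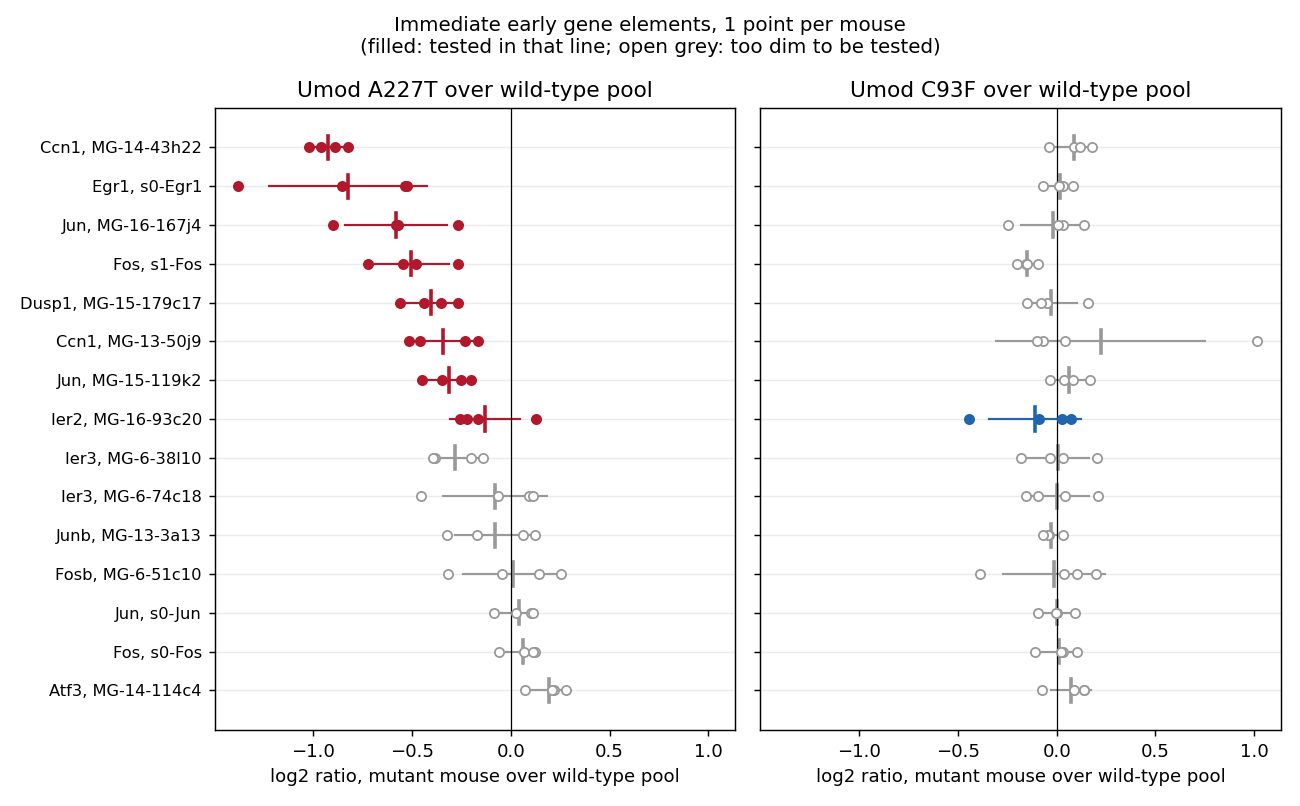
Log2 ratio of mutant over wild-type pool (x axis) for the 15 elements (rows), 1 point per mouse, with the mean (vertical tick) and SD (line) of 4 mice per line; filled points were tested in that line and open grey points were too dim. In Umod A227T the 4 called elements lie between -1.38 and -0.26 in every mouse. In Umod C93F all but 1 point lie between -0.44 and 0.21. Only 1 of the 15 elements (Ier2) was tested there, and ratios of dim spots are pulled toward 0, so the panels cannot be compared for the others.

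Egr1, a zinc finger transcription factor that SRF switches on downstream of the ERK kinases, was represented by 1 element. Its log2 ratio was -0.54, -0.53, -1.38 and -0.85 in the 4 Umod A227T mice, which gives -0.82 ± 0.40 (SD, n = 4), or 1.77-fold lower. Normalized intensities were 185, 194, 210 and 305 in the mutant channel, against 268, 280, 547 and 551 in the pool channel. Every mouse lay below its pool measurement, the third by the widest margin, and the Egr1 ratio was the most variable of the called elements. The arrays with the mutant in red gave a mean of -0.51 and those with the mutant in green -1.14, and mouse 1 gave 0.17 on the first and -1.25 on the other. With the first orientation alone Egr1 was not called.

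Fos and Jun encode the partners of the AP-1 complex. Fos element s1-Fos gave -0.72, -0.48, -0.55 and -0.26 in mice 1 to 4 of Umod A227T, a mean of -0.50 ± 0.19 (SD, n = 4), or 1.42-fold lower, just past the fold threshold. Its intensities were 333, 288, 215 and 166 in the mutant channel, against 549, 400, 314 and 199 in the pool channel. All 4 mice were on the same side, and both dye orientations gave about the same mean (-0.51 with the mutant in red and -0.50 in green). Without mouse 1 the mean was -0.43 and Fos was no longer called. The same held without background correction, with median centring and with scaling between arrays.

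Of the 3 Jun elements, MG-16-167j4 was the brightest, at a median of 3.48 times the background in the pool channel. It gave -0.27, -0.90, -0.58 and -0.57 in the 4 Umod A227T mice, with a mean of -0.58 ± 0.26 (SD, n = 4), or 1.49-fold lower. Intensities were 259, 166, 211 and 166 in the mutant channel, against 312, 310, 315 and 246 in the pool channel. The pool measurements of mice 1 to 3 were nearly equal, so that the spread lay in the mutant channel. Without mouse 2 the mean was -0.47 and Jun was no longer called. A second Jun element, MG-15-119k2, was dimmer (2 of 8 arrays at 2 times the background in the mutant channel and 6 of 8 in the pool channel). It averaged -0.31 ± 0.11 (SD, n = 4), 1.24-fold lower, in the same direction in all 4 mice. It passed the filter mostly through the pool channel, so nothing is read from that direction. The remaining Fos and Jun elements, s0-Fos and s0-Jun, lay at a median of 1.04 to 1.07 times the background in both channels of the Umod A227T series, and carry no measurement of these transcripts.

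**Figure D2:**
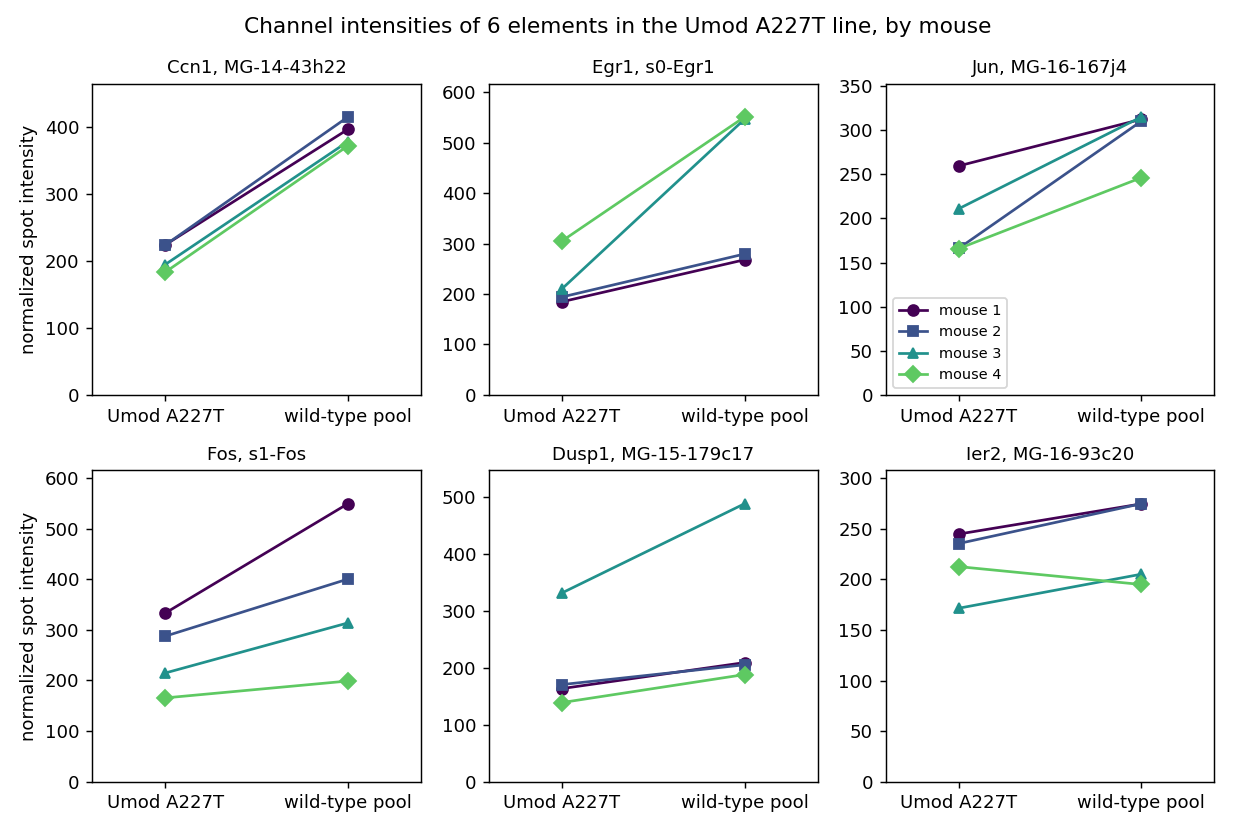
Normalized spot intensity (y axis, from 0) of 6 elements in the Umod A227T channel (left) and the wild-type pool channel (right) of each mouse, mean of both arrays, with 1 line per mouse. Lines of Ccn1, Egr1, Jun, Fos and Dusp1 rise toward the pool in all 4 mice, and the Ier2 line of mouse 4 runs the other way.

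The other AP-1 family members were at the edge of detection. Junb, which pairs with FOS proteins and acts partly against JUN, was at 2 times the background on 1 of 8 arrays in the mutant channel and 2 of 8 in the pool channel of the Umod A227T series, with ratios of -0.32, -0.17, 0.06 and 0.12. Fosb reached that level on 3 and 2 of 8 arrays and gave ratios between -0.32 and 0.25. Both therefore lay on either side of 0 and neither was tested. Atf3, a stress-induced factor of the ATF/CREB family, was brighter (6 and 4 of 8 arrays) and was above 0 in 4 of 4 mice, at 0.19 ± 0.09 (SD, n = 4). It too was not tested, and its single arrays ranged from -0.34 to 0.78.

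Ccn1 encodes a secreted matricellular protein that binds integrins and is a known target of SRF and YAP. Element MG-14-43h22 gave -0.82, -0.89, -0.96 and -1.02 in the 4 Umod A227T mice. The mean of -0.92 ± 0.09 (SD, n = 4), 1.90-fold lower, was the largest change with the smallest spread among the called immediate early gene elements. Intensities were 224, 224, 195 and 183 in the mutant channel, against 397, 415, 379 and 372 in the pool channel, with no overlap between the channels. The 8 single arrays lay between -1.12 and -0.74. The second Ccn1 element, MG-13-50j9, was dimmer, at a median of 2.13 times the background in the pool channel against 4.13 for the first, and averaged -0.34 ± 0.17 (SD, n = 4). It had the same direction in all 4 mice and did not pass the fold threshold. It reached 2 times the background on 4 of 8 arrays in the mutant and 8 of 8 in the pool channel. Since the pool channel carried it through the filter, nothing is read from its direction.

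Dusp1 encodes the nuclear phosphatase that switches off MAP kinases and so closes the loop that induces it. Its ratios were -0.36, -0.27, -0.56 and -0.44 in the 4 Umod A227T mice, a mean of -0.40 ± 0.12 (SD, n = 4), or 1.32-fold lower, below the fold threshold. It passed both thresholds with local background subtraction and with the second dye orientation alone. The element reached 2 times the background on 6 of 8 arrays in the mutant and 8 of 8 in the pool channel. Dusp1 was not tested when both channels had to reach that level. Intensities in mouse 3 (331 in the mutant and 488 in the pool channel) stood above those of the other mice (139 to 170 in the mutant and 188 to 209 in the pool channel), while the ratios did not separate that mouse. The mean was -0.14 with the mutant in red and -0.67 with the mutant in green. The second elements of Ccn1 (-0.10 in red and -0.58 in green) and Jun (-0.12 and -0.51) also lay lower with the mutant in green, and the brighter elements of Ccn1 (-0.87 and -0.98) and Jun (-0.57 and -0.59) gave similar means in both orientations.

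Ier2, a nuclear regulator induced with this group, was the one gene tested in both lines. In Umod A227T it gave -0.17, -0.22, -0.26 and 0.13, a mean of -0.13 ± 0.17 (SD, n = 4), with mouse 4 on the other side of 0. Ier3, a stress-induced regulator of cell survival, had a pair of elements that were both too dim to be tested. MG-6-38l10 averaged -0.28 ± 0.13 and was below 0 in 4 of 4 mice, and MG-6-74c18 averaged -0.08, with mouse 3 at -0.45 and the others between -0.07 and 0.11.

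**Figure D3:**
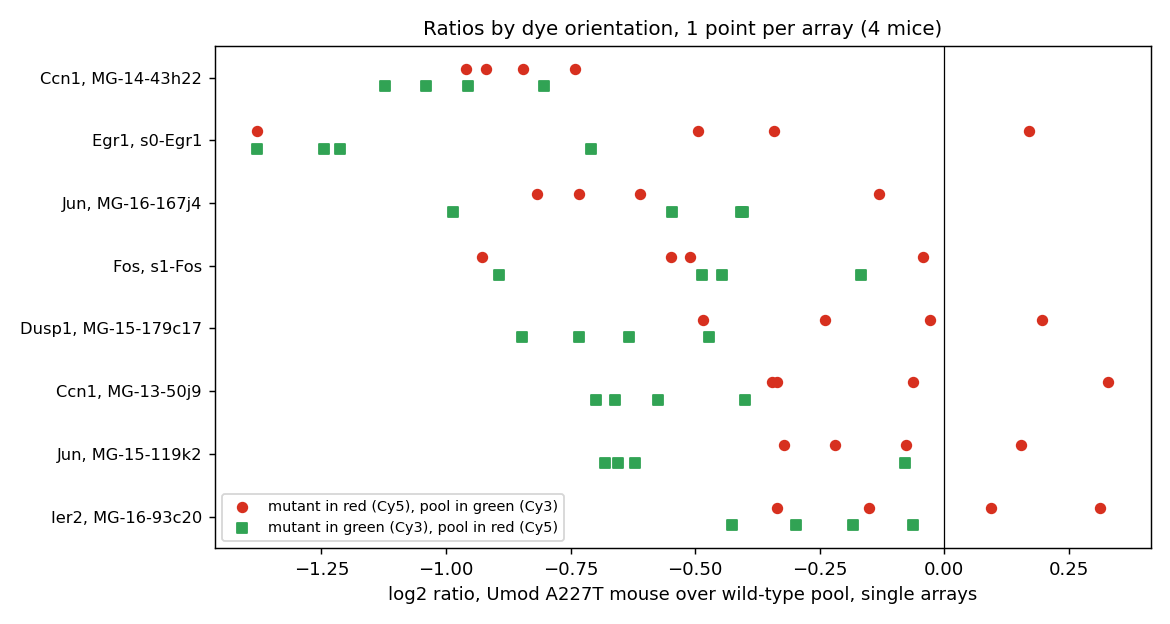
Log2 ratios of Umod A227T over wild-type pool (x axis) on single arrays for the 8 tested elements (rows), with the mutant in red (circles) or in green (squares), 4 arrays each. The first Ccn1 element, Jun MG-16-167j4 and Fos lie below 0 on all 8 arrays, and green squares of Dusp1 and of the second Ccn1 and Jun elements lie mostly left of the circles.

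In Umod C93F kidneys, 0 of 1 tested gene was called, with 1% of 3287 elements called over the whole array (0.974% lower, 0.0304% higher). Ier2 gave 0.03, -0.44, 0.07 and -0.09 in the 4 mice, a mean of -0.11 with a 95% confidence interval of -0.28 to 0.06 (limma, adjusted p = 0.347). Mouse 2 alone set the sign, and without it the mean was 0.00. The array of mouse 2 with the mutant in green gave -1.10 and its dye swap 0.21. The difference in Ier2 between the lines, Umod A227T minus Umod C93F, was -0.02 with an SE of 0.12, and Ier2 was the single immediate early gene among the 2168 elements tested in both lines, of which 5.26% were called (3.14% lower, 2.12% higher).

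The other elements had no measurable level in the Umod C93F series or reached it on part of the arrays. Egr1 lay at a median of 1.08 times the background in the mutant channel and 1.07 in the pool channel (0 of 8 arrays above 2 times in either), against 2.78 in the mutant and 4.24 in the pool channel of the Umod A227T series. Ccn1 MG-14-43h22 was at 1.43 and 1.42, against 2.65 and 4.13, and Jun MG-16-167j4 at 1.34 and 1.39, against 2.53 and 3.48. No fold is given for these 3 elements in Umod C93F, where neither channel reached 2 times the background on any array. Fos s1-Fos was above 2 times the background on 3 of 8 arrays in the mutant and 4 of 8 in the pool channel, without being tested. Its ratios of -0.10, -0.20, -0.16 and -0.15 were below 0 in 4 of 4 mice (-0.15 ± 0.04, SD, n = 4), as were 19.5% of all tested Umod C93F elements. The mean was -0.29 with the mutant in red and -0.01 in green. Of similar brightness and also not tested, Jun MG-15-119k2 averaged 0.06 ± 0.09 (4 and 1 of 8 arrays) and Junb -0.03 ± 0.04 (1 and 4 of 8).

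The loss of these elements was compared with that of others of like brightness, by limits chosen after the values had been seen. In the Umod A227T pool channel, 2260 tested elements had a median of 3 to 5 times the background, and 29.8% of them were also tested in Umod C93F. Of these elements, 4.6% lay at or below 1.1 times the background in the Umod C93F pool channel, as Egr1 did, and 24.5% at or below 1.5 times, as did Egr1, Ccn1 MG-14-43h22 and Jun MG-16-167j4. The other immediate early gene element within these limits, s1-Fos, lay at 1.97 there, against a median of 1.82 for all. The low signal of Egr1, Ccn1 and Jun was thus seen with wild-type RNA too, and age, pool and array series cannot be told apart here. Without the filter on dim spots, Ccn1, Egr1 and Jun were called lower in Umod A227T minus Umod C93F. Of 20532 elements, 1.06% were called there. This difference uses Umod C93F spots under 2 times the background. It also holds the Umod A227T values on which the genes were chosen, so nothing is read from these calls.

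**Figure D4:**
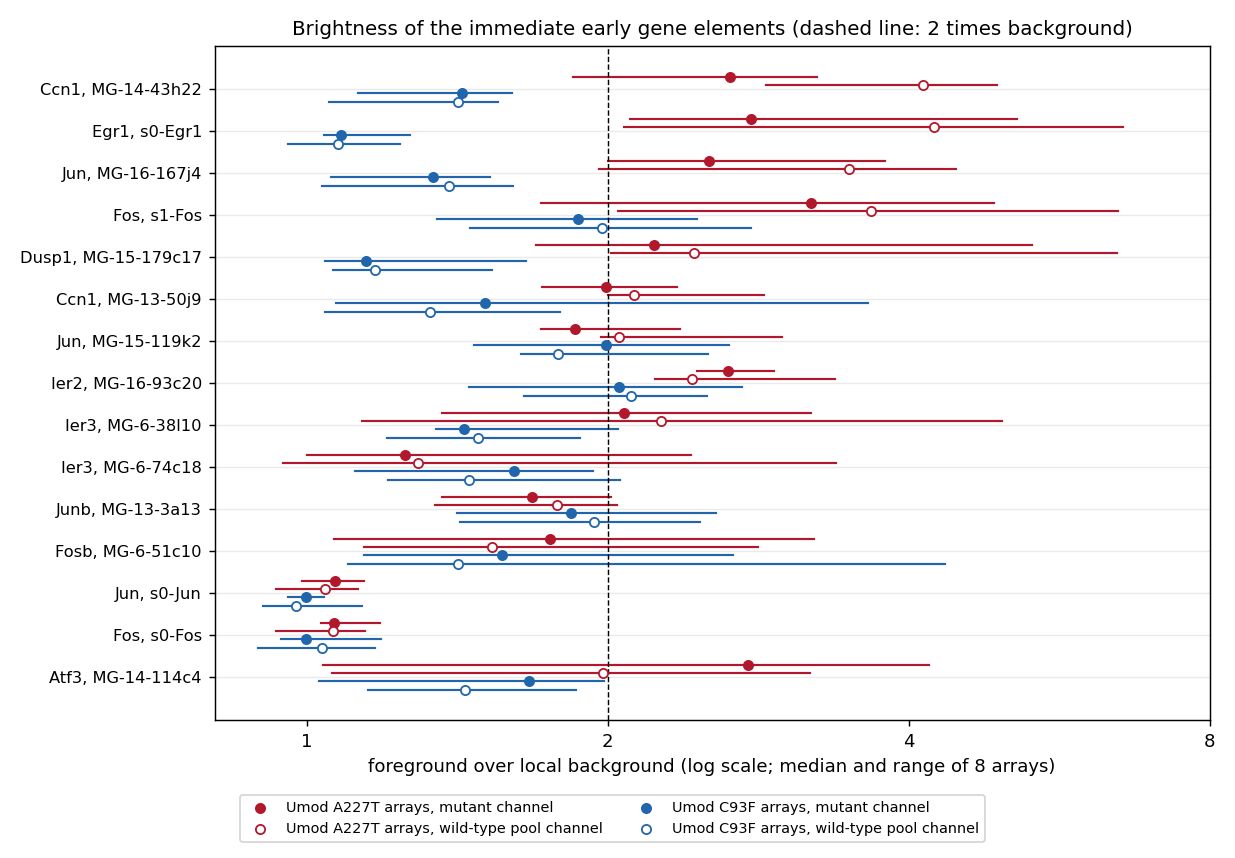
Foreground over local background (x axis, log scale) of the 15 elements (rows), median (point) and range (line) of 8 arrays per line, in the mutant channel (filled) and the wild-type pool channel (open). Egr1 and the first elements of Ccn1 and Jun lie right of the dashed line at 2 in Umod A227T by their medians and left of it on every Umod C93F array.

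Genes of the same and neighbouring responses were taken from 4 further lists. Of 40 other early response genes on the array, 23 were tested in Umod A227T, with 1 called higher and 0 lower (median log2 ratio -0.03). The median over all 5167 named genes tested was 0.02, with 0.832% of them called lower and 0.852% higher. The gene called was Tsc22d1, a transcription factor first known from its induction by TGF-beta, at 0.52 ± 0.33 (SD, n = 4; limma, adjusted p = 0.0117), while a second element, MG-3-96p3, was at 0.12 ± 0.22 (adjusted p = 0.484). The call was lost without mouse 2, without mouse 3, with print-tip loess and with the first dye orientation alone. Gadd45g, a growth arrest gene, was at -0.35 ± 0.09 in 4 of 4 mice (adjusted p = 0.0129) and did not pass the fold threshold. Dusp8, a phosphatase of the JNK kinases, was at -0.37 ± 0.56 (adjusted p = 0.19), and Irf1, an interferon-induced factor, at 0.19 ± 0.12 (adjusted p = 0.17). In the Umod C93F line 9 of these genes were tested and 0 called (median 0.04). The farthest from 0 was Rhob, a growth factor-induced small GTPase, at -0.25 ± 0.27 (adjusted p = 0.0748).

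Of the kinases and nuclear factors upstream of the response, 16 of 25 on the array were tested in Umod A227T and 0 were called in either direction (median -0.02). The farthest from 0 were Map2k4, a kinase that activates JNK, at -0.28 ± 0.15 (adjusted p = 0.056), and Srf itself at -0.24 ± 0.21 (adjusted p = 0.131), followed by the small GTPase Rhoa (0.21 ± 0.15) and the RAS activator Sos1 (-0.19 ± 0.28). In Umod C93F 3 were tested and 0 called. Of the actin and matrix genes that SRF and YAP are known to control, 11 of 19 were tested in Umod A227T and 0 called (median 0.08). Tpm1, a tropomyosin, was at 0.42 ± 0.21 (adjusted p = 0.0122), above 0 in 4 of 4 mice and below the fold threshold. Of 3 elements of the cytoplasmic actin Actg1, the brightest was at 0.30 ± 0.05 (adjusted p = 0.0261), below the fold threshold, and the others at 0.32 ± 0.26 (adjusted p = 0.0616) and, in the other direction, -0.14 ± 0.12 (adjusted p = 0.323). Tpm4, another tropomyosin, was at 0.27 ± 0.15, and Myh11, the smooth muscle myosin, at -0.23 ± 0.25. In Umod C93F 6 of these were tested and 0 called (median 0.15), with Actb, the other cytoplasmic actin, at 0.38 ± 0.07 (adjusted p = 0.000495).

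Of 14 heat shock genes on the array, 10 were tested in Umod A227T, with 0 called higher and 1 lower (median -0.11). The gene called was Hspa1a, the inducible HSP70 chaperone, at -0.74, -0.70, -0.83 and -0.99 in mice 1 to 4, a mean of -0.81 ± 0.13 (SD, n = 4; limma, adjusted p = 8.63e-05). No heat shock gene was called with the stricter filters or with the processed ratios, where 7 to 9 were tested. The stricter filters leave the ratios unchanged, so the call may be lost there because Hspa1a was not tested. Next in size were Hsp90aa1, the inducible HSP90, at -0.27 ± 0.22 (adjusted p = 0.0981), the co-chaperone Dnaja1 at -0.22 ± 0.28 (adjusted p = 0.224) and Hspa4, an HSP110 family member, at 0.17 ± 0.10 (adjusted p = 0.241) with a second element at -0.11 ± 0.23. An element annotated to Hspa1b, named after its value was seen because it is a near-identical copy of Hspa1a that may take up the same transcripts, was at -0.14 ± 0.15 (adjusted p = 0.364). In Umod C93F 6 heat shock genes were tested and 0 called, with Hspd1, the mitochondrial chaperonin, at -0.29 ± 0.08 in 4 of 4 mice (adjusted p = 0.00234) below the fold threshold.

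**Figure D5:**
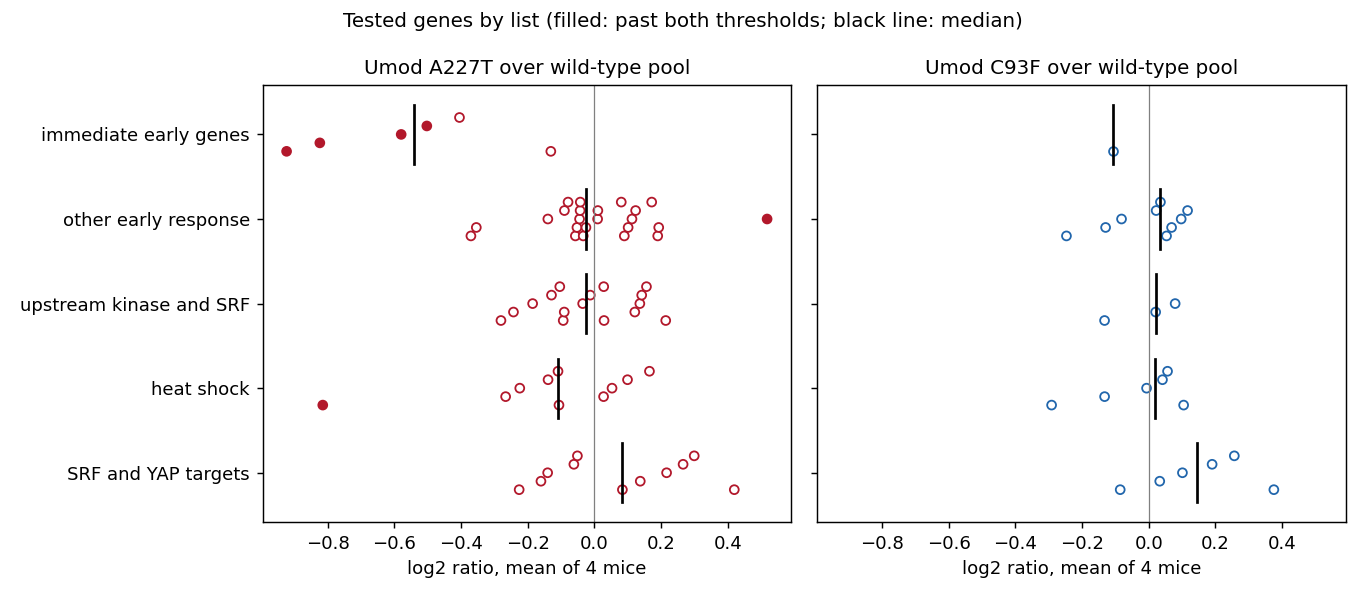
Mean log2 ratio over 4 mice (x axis) of each tested gene, brightest element of a gene, by list (rows; points are offset for legibility), for Umod A227T (left) and Umod C93F (right). Filled points passed both thresholds and black lines are medians. The median is -0.54 for the 6 immediate early genes in Umod A227T, which were chosen on this contrast, so nothing is read from its distance to the other lists. Medians of the other lists lie between -0.11 and 0.08 in Umod A227T and at 0.02 to 0.15 in Umod C93F.

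The named genes with ratios most like those of each called immediate early gene were found by the root mean square difference over the 4 Umod A227T mice, as a description. Egr1 was closest to Hba-a1, the alpha globin of red cells, by 2 elements, of which the closer gave -0.67, -0.57, -1.17 and -0.78 (difference 0.13, and 0.20 for the other). The third was Ucma (0.20), a secreted cartilage protein. Mouse 3 was the lowest on all of these elements, as for Egr1, which a search for like ratios favours. Ccn1 was closest to Mark3 (0.12), a polarity kinase, Hspa1a (0.12) and the ephrin receptor Epha6 (0.15). Fos was closest to the lysosomal protease Lgmn (0.07), the mitochondrial ribosomal protein Mrps6 (0.10) and the matrix protease Mmp9 (0.13), and Jun to the pancreatic enzyme Cpa1 (0.16), the HSP90 co-chaperone Ahsa1 (0.19) and the nucleoporin Nup155 (0.20).

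Markers of other cells also differed in Umod A227T. Of the red cell markers Hba-a1 and Alas2, the brightest Hba-a1 element was called lower (-0.80 ± 0.26, limma, adjusted p = 0.000252) and Alas2, the heme synthesis enzyme, was at -0.10 ± 0.21 (adjusted p = 0.545). Their summed intensity ranged from 666 to 5262 in the mutant channel and from 1352 to 8211 in the pool channel. Of 4 fibroblast markers on the array, 3 were tested and 3 called higher, with Col3a1 at 0.80, Col1a1 at 0.75 and Dcn at 0.73, summed to 917 to 1420 in the mutant and 533 to 801 in the pool channel, and Pdgfra was at 1.07 times the background in the pool channel. Of 5 adipocyte markers 3 were tested, with Fabp4 (0.82) and Ucp1 (0.54) called higher, Pparg at -0.46 without passing the fold threshold, and Adipoq at 1.38 times the background. The intercalated cell marker Car15, a carbonic anhydrase, was the 1 tested of 3 on the array and was called higher (0.71 ± 0.18, adjusted p = 0.000241). Of 2 collecting duct principal cell markers tested, Aqp2, the water channel, was at 0.48 ± 0.23 (adjusted p = 0.00715) without passing the fold threshold. The other, Scnn1a, lay in the other direction at -0.14 ± 0.07 (limma, adjusted p = 0.329). The 3 proximal tubule markers tested had a median of -0.23, with 0 called. Of 5 endothelial markers 4 were tested and 0 called, with Pecam1 at -0.28 and Tek at 0.23, and of 2 smooth muscle and pericyte markers 0 were called. The part of these cells in the immediate early gene values was not tested, and in whole kidney RNA fewer cells of a type and less RNA per cell cannot be told apart.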

How the data were processed

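The authors deposited scanner files that hold, per spot and channel, a foreground and a background intensity without normalization, and processed log2 ratios per mouse. The table does not state their scale, centring or direction, the study's figure legends give mutant over wild type, and their column medians lay between 0.007 and 0.047. The authors filtered on background and dye agreement and called genes with SAM. The scanner software and a genome build are not given in the sources used here.

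With R 4.3.3 and limma 3.58.1, intensities were background corrected (normexp, offset 50) and loess normalized within each array, with no weight for spots marked as not found. Signs were turned to mutant over pool, spots of a clone and both arrays of a mouse were averaged, and lmFit and eBayes tested the mean of each line against 0 over all tested elements. The 217 of 20794 positions with another clone name in the Umod C93F scans were left out there. As each pool counts as 1 control, variation among wild-type animals does not enter the p-values. Precision is limited by the 4 mice and 1 pool per line, and both arrays of a mouse count as 1 value. The labels name separate mice as replicates.

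The immediate early genes and the lists were chosen with earlier results of these data known. Named genes are all immediate early gene elements, up to 4 tested genes per list and line with the largest ratio, in either direction, and the 3 most similar genes; markers are from lists by cell type. Steps were tested on simulated data. Of 100 elements given a 1.5-fold difference there, 30 were called in Umod A227T and 26 in Umod C93F. At 2-fold, 97 and 99 of 100 were called. The median of recovered over true size lay between 0.70 and 0.76, so printed folds may be too small. An element that was not called may still differ by about 1.5-fold. Alternatives covered background correction, normalization, filters, thresholds, dye orientation, the processed ratios, one value per gene, a replicate block and the omission of each mouse.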

Additional observations from a re-analysis of the deposited data

Results flagged for a closer look

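One value of an immediate early gene lay far from the others of its group, among 30 groups of 4 mice examined, and chance flags about 1 in 20 such groups. The second Ccn1 element, MG-13-50j9, had a log2 ratio of 1.01 in Umod C93F mouse 2, against -0.10 to 0.04 in the other 3 mice. The value came from 1 of its 2 arrays, with 1.88 when the mutant was labelled green and 0.15 when it was labelled red. The mutant channel reached 3.64 times the background on that array, where the 8 arrays of the line had a median of 1.51, and the element was too dim to be tested. The first Ccn1 element gave -0.04 in the same mouse.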

How the results depend on the processing

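In Umod A227T 4 immediate early genes were called, and their direction, which their choice fixes, was below 0 under every setting that gave a value. When the foreground had to be 3 times the background, 2 genes were tested and the count was 2 (Ccn1 and Fos). It was 3 to 4 without each mouse in turn. With local background subtraction, with the second dye orientation and with the adjusted p alone it was 5 (with Dusp1). The share called over all elements was 1.8% in the main run, 3.64% at 3 times the background and 1.7 to 2.15% without each mouse. It rose to 3.17% with local background subtraction, 5.05% with the second dye orientation and 10.8% with the adjusted p alone. In Umod C93F the count of genes was 0 throughout. Ier2 turned to 0.17 there with the first dye orientation and ranged from -0.17 to 0.00324 without each mouse in turn (0.00324 without mouse 2). For the difference between the lines the count was 0, against 3 (Ccn1, Egr1 and Jun) without the filter on dim spots, where 1.06% of 20532 elements were called, and 3 with the processed ratios, where 9.02% of 4658 were. Both include Umod C93F spots under 2 times the background, and both hold the Umod A227T values on which the genes were chosen.

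Over all elements, local background subtraction gave 292 calls in Umod A227T, 71 in Umod C93F and 205 in their difference, against 166, 33 and 114. The first and second dye orientation alone gave 793 and 584 in Umod A227T and 225 and 131 in Umod C93F, and the adjusted p alone 991 and 780. One value per gene gave 86 in Umod A227T and 41 in the difference, from fewer elements. No background correction gave 21 in Umod C93F and the processed ratios 9. The difference gave 174 calls with median centring (16.7% lower, against 59.6%), 64 with the stricter filter, 218 without a filter and 420 with the processed ratios. Where no construction shows it, the cause was not tested. Without each mouse the counts were 157 to 198, 33 to 37 and 102 to 134, and those of the immediate early genes 0 to 0 in Umod C93F and the difference.

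With the replicate number as a block the difference between the lines gave 114 calls and 0 immediate early genes. The numbers share nothing but a label, since deviations of same-numbered mice correlated at -0.06 to -0.00 over 2168 elements, and no mouse correlated best with its own number. Dim spots limit what the Umod C93F arrays can show, and the offset of 50 pulls ratios of dim spots toward 0.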

Other observations

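The processed ratios deposited under Umod C93F mouse 1 followed the scans of mouse 2 across elements (r = 0.68, against 0.11 with its own scans), and those under mouse 2 followed the scans of mouse 1 (r = 0.73, against 0.11). The remaining 6 mice matched their own scans (r = 0.77 to 0.97). Means over the 4 mice are not touched by such an exchange, and elements are not independent replicates.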
